A study of Mus musculus with 4 samples.

Results

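Immediate early genes are transcribed within minutes of synaptic activity without new protein synthesis, and their messenger RNA decays quickly afterwards, so their level in brain reflects recent activity and stimulation. Synaptic calcium entry and growth factor signalling act through kinases on the transcription factors CREB and SRF, which bind the CRE and the CArG box of these promoters. The first products are mostly transcription factors of the FOS, JUN, EGR and NR4A families. They act on effector genes whose products work at synapses or are secreted, and many of the same stimuli induce phosphatases and RNA-destabilising proteins that end the response. The genes described here are 42 activity-induced genes, chosen by name and matched to array probes through the RefSeq accession of each probe. Of the 42 genes, 41 were represented by 56 of the 41174 distinct probes on the array, and Dusp5, a nuclear MAP kinase phosphatase, was matched to none. All 56 probes were well above background in every channel. By role, 20 genes encoded rapid transcription factors, 15 feedback and other early regulators and 6 effectors (Arc, Bdnf, Homer1, Nptx2, Ptgs2 and Inhba).

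RNA came from whole brain of 50-week-old mice of a pair of strains. SAMP8 is senescence-accelerated and prone to early learning deficits, SAMR1 is its senescence-resistant control, and the labels give AKR/J with suspected outbreeding as the background of both. The groups were SAMP8 on a control diet low in safflower oil (LSO), SAMP8 given whale meat extract in the diet (WME), and SAMR1 on the LSO diet. All mice ate chow until 24 weeks of age and then the test diet for 26 weeks. The mice went through 8 days of behavioural tests at 49 weeks, before the brains were taken. Two-colour arrays carried SAMP8 WME against SAMP8 LSO (the diet pair) and SAMP8 LSO against SAMR1 LSO (the strain pair), each hybridised in both dye orientations on 2 arrays. Not given in the labels are the number of mice behind an RNA, whether RNAs were pooled, or the time between testing and killing of each animal. The design therefore holds 1 RNA per group, so no difference has a replicate check and no p-value is given. An SD below is the spread over the 2 arrays of a pair. It measures technical error and includes the dye bias of a probe, which the mean over both arrays cancels.

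Between 81.4% and 85.6% of spots stood well above background, depending on array and channel, with 0 saturated. With 4 arrays in all, precision is limited throughout. All 12 neuronal markers examined, among them Rbfox3 and Slc17a7, were measured in both pairs, with at least 1 RNA well above background on both arrays. A gene is represented by its brightest probe. A call needed a difference of 1.5-fold or more, with the same sign, on each of the arrays of a pair. In whole-tissue RNA, fewer active cells and less RNA per cell cannot be told apart.

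The promoters were searched for the elements named above and for the site that EGR factors bind. RefSeq promoters (build GRCm38.p6) were matched to 34 of the 42 genes. Shown are the 250 bases before the start of the 5 called transcription factor genes, of Btg2, which carries a full CRE, and of Inhba, an effector gene with no match. Egr2 has several starts, and the one shown was picked from those with a CArG box. For another of its starts the box lies between −133 and −124. Capitals mark every CArG box, CRE (TGACGTCA), CRE core (TGACG) and EGR site (GCGNGGGCG) found on either strand, and each full CRE also holds the core on both strands.
Fos, chr12:85473640-85473889, + strand: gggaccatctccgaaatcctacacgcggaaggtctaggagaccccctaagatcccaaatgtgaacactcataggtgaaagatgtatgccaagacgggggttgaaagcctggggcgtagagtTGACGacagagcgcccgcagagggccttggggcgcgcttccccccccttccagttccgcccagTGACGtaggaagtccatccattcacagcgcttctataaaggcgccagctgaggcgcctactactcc
Egr2, chr10:67537619-67537868, + strand: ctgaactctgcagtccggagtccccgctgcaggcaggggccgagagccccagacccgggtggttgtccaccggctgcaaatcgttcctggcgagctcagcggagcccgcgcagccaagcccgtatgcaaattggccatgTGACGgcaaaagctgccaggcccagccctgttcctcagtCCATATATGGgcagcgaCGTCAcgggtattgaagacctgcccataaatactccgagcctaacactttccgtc
Egr4, chr6:85513590-85513839, - strand: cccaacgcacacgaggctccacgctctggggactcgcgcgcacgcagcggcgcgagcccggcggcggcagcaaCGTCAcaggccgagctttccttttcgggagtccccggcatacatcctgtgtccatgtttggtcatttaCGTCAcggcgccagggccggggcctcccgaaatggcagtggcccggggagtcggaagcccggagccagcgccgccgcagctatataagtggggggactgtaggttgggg
Nr4a1, chr15:101266596-101266845, + strand: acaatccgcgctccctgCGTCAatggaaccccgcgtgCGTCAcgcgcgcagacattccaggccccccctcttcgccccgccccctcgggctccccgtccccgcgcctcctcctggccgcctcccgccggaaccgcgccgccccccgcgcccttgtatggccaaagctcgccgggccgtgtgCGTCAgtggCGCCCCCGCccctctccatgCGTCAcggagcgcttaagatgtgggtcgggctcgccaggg
Atf3, chr1:191183334-191183583, - strand: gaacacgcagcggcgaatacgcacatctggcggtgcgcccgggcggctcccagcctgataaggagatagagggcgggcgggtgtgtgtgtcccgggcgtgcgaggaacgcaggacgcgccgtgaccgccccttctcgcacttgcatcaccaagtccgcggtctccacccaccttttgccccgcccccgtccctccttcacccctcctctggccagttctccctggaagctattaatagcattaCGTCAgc
Btg2, chr1:134079156-134079405, - strand: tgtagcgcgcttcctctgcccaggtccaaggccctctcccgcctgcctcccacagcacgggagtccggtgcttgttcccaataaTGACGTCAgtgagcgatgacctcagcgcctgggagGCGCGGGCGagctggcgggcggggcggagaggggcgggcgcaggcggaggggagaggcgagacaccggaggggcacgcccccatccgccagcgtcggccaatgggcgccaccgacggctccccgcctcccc
Inhba, chr13:16011601-16011850, + strand: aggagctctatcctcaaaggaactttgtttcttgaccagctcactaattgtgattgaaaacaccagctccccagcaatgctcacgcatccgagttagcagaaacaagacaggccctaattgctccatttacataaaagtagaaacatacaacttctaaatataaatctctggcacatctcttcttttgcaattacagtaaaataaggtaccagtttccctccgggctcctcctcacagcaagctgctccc

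Among the 17 transcription factor genes with a promoter in the table, 14 held a CRE core in at least 1 promoter, 1 a CArG box (Egr2), 1 a full CRE (Maff) and 7 an EGR site. Fos carried the core at −129 and −66 from its start, and Nr4a1 carried it 4 times with an EGR site between −60 and −52. Of the 13 regulator genes, 6 held the core, 4 the full CRE (Btg2, Dusp1, Plk2 and Ppp1r15a), 2 the CArG box (Dusp5 and Zfp36) and 4 an EGR site. The 4 effector genes in the table held the core in 2 cases and no CArG box, CRE or EGR site. Over all 27025 genes of the table the core stood in 19.8%, the CArG box in 1.62%, the full CRE in 1.77% and the EGR site in 5.33%. Promoters of the transcription factor genes had a median of 64.2% G and C, against 52.4% over all 32851 promoters and 49.2% for the effector genes, and the core and the EGR site contain CG. A match describes these letters and not a bound site, and elements farther upstream were not searched.

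**Figure D1:**
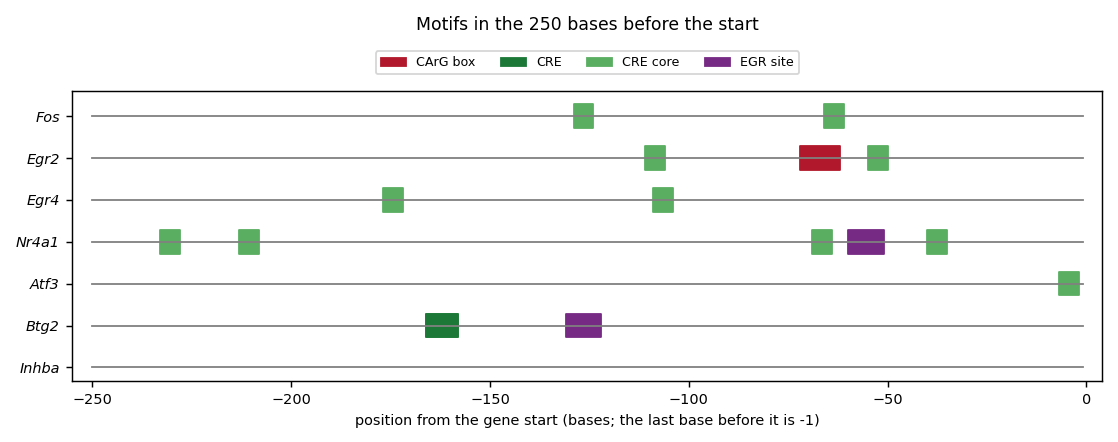
Positions of the CArG box, the CRE, the CRE core and the EGR site in the 250 bases before the start of 7 genes, with the position in bases from the start on the horizontal axis and 1 line per gene. Nr4a1 carries 4 CRE cores, Egr2 a CArG box between −72 and −63 for the start chosen, Btg2 a full CRE between −166 and −159, and Inhba none of the motifs.

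The diet pair asked how the WME diet changed expression in SAMP8 brain. With WME 12 of 20 rapid transcription factors and 7 of 15 feedback regulators were below 0 on both arrays, while 4 of the 6 effector genes were above 0 on both. Fos and Egr2 were called lower, 2 of 41 genes, against 0.03% of the 26670 measured genes and unnamed transcripts. Called higher were 0 of 41, against 0.0562%. On both arrays 20 of 41 genes lay below 0, where 17.6% of all measured features did, and 5 of 41 above 0, where 20.5% did. Of the 56 probes 27 were below 0 on both arrays (17.1% of all probes) and 10 above (20.4%). At 1.2-fold on both arrays 10 of 41 were lower and 0 higher, against 0.109% and 0.172% of all features. The median log2 ratio was −0.11 over the 41 genes, −0.13 over the transcription factors, −0.15 over the regulators and 0.18 over the effectors, beside 0.0038 over all features. Median centring in place of loess moved the median of all features to 0.066. The median of the 41 genes was then 0.0034 and that of the regulators 0.013, both still under the median of all features, and 10 of the 41 genes changed sign.

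**Figure D2:**
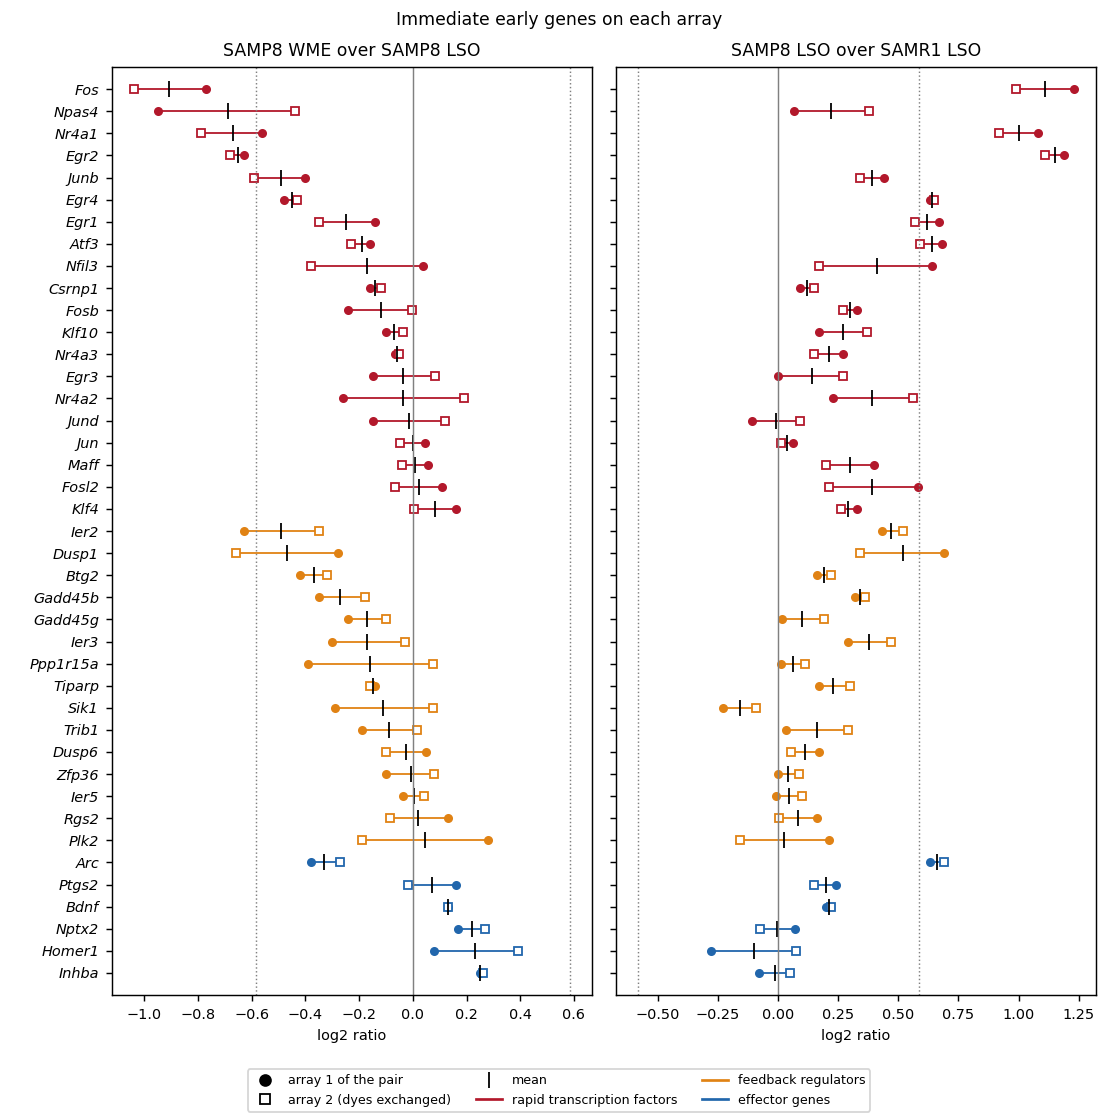
Log2 ratio of each of the 41 genes on each array, with SAMP8 WME over SAMP8 LSO on the left and SAMP8 LSO over SAMR1 LSO on the right; filled circles are array 1, open squares array 2 with the dyes exchanged, vertical ticks the mean, and dotted lines mark 1.5-fold. On the left Fos and Egr2 lie beyond the dotted line on both arrays, and on the right Fos, Egr2, Nr4a1, Egr4, Arc and Atf3 do.

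Among the AP-1 genes, whose products pair as FOS and JUN dimers, Fos and Junb stood lowest in the diet pair. Fos had log2 ratios of −0.77 and −1.04 on the 2 arrays, a mean of −0.91 ± 0.19 (SD, 2 arrays of 1 RNA pair), which is 1.88-fold lower with WME and the fourth lowest value of all measured features. Junb had ratios of −0.40 and −0.59 on its brightest probe (−0.49 ± 0.14) and a mean of −0.50 on its other probe. It passed 1.5-fold on 1 array and was not called. The other AP-1 and related genes stayed nearer to 0, with Fosb at −0.12 ± 0.17, Atf3, a stress-induced ATF/CREB factor, at −0.19 ± 0.048 (−0.41 with processed signals), and Nfil3, a bZIP repressor, at −0.17 ± 0.30 (its other probe at −0.16). Jun (−0.00087 ± 0.067), Jund (−0.015 ± 0.20), Fosl2 (0.022 ± 0.13, its other probe at −0.042) and the small MAF factor Maff (0.0071 ± 0.067) differed by less than their spread over the arrays. Under median centring Jun and Jund stood at 0.17 and 0.22.

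EGR genes encode zinc finger factors that bind GC-rich sites. Egr2 had ratios of −0.63 and −0.68, a mean of −0.65 ± 0.04 and a fold of 1.57 lower with WME. Its call ended under median centring, at −0.51. Egr4 followed at −0.48 and −0.43 (−0.45 ± 0.038), with nearly the same value on both arrays but under the 1.5-fold limit. Egr1, the most widely used activity marker of the family, stood at −0.14 and −0.35 (−0.25 ± 0.15). Under median centring Egr4 was at −0.25 and Egr1 at −0.041. Egr3 had opposite signs on the arrays (−0.15 and 0.081), and its value was −0.037 ± 0.17 (0.17 with processed signals).

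NR4A genes encode orphan nuclear receptors. Nr4a1 had ratios of −0.56 and −0.79, a mean of −0.67 ± 0.16 and a fold of 1.6 lower, and it missed the call because the first array fell just short of 1.5-fold. Its relatives stood nearer to 0, with Nr4a2 at −0.26 and 0.19 and Nr4a3 at −0.068 and −0.05. The Nr4a3 probe was dim (mean log2 intensity 6.79), and its diet mean was −0.72 with processed signals, so its size depends on the processing. Npas4, a neuron-specific factor that responds to calcium entry, had ratios of −0.95 and −0.44 (−0.69 ± 0.36, 1.62-fold lower). It was called with Feature Extraction's processed signals, at −0.85, and not otherwise. The remaining factors were Csrnp1 (−0.14 ± 0.026 on its brightest probe, with its others at −0.011 and 0.067), Klf10 (−0.071 ± 0.047) and Klf4 (0.084 ± 0.11).

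Feedback regulators formed a graded series in the diet pair, with 7 of 15 below 0 on both arrays and 0 above. Ier2, a short nuclear regulator, had ratios of −0.63 and −0.35 (−0.49 ± 0.20), but its dimmer probe stood at 0.13, so its direction depends on the probe. Dusp1, a phosphatase that inactivates MAP kinases, had ratios of −0.28 and −0.66 (−0.47 ± 0.26). Btg2, an antiproliferative cofactor of messenger RNA deadenylation, was the most even across probes, with means of −0.37, −0.38 and −0.38 on its 3 probes. The probes of Gadd45b, a stress sensor linked to DNA demethylation, also lay close together at −0.27 and −0.25. Tiparp, an ADP-ribosyltransferase, had ratios of −0.14 and −0.16 (−0.15 ± 0.014). Smaller or less even values were those of Gadd45g (−0.17 ± 0.10), Ier3 (−0.17 ± 0.19), the eIF2α phosphatase subunit Ppp1r15a (−0.16 ± 0.33), the kinase Sik1 (−0.11 ± 0.26) and the pseudokinase Trib1 (−0.087 ± 0.14). Csrnp1, Gadd45g and Tiparp were above 0 under median centring (0.016, 0.031 and 0.013). Dusp6, which inactivates ERK (−0.025 ± 0.10), the messenger RNA decay factor Zfp36 (−0.0083 ± 0.13, its other probe at −0.037), Ier5 (0.004 ± 0.056), the G protein regulator Rgs2 (0.021 ± 0.15, its other probe at 0.0033) and the kinase Plk2 (0.046 ± 0.33) did not separate from 0.

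Effector genes split into Arc and the others. Arc, which drives removal of AMPA receptors from synapses, moved with the transcription factors, with ratios of −0.38 and −0.27 (−0.33 ± 0.075), and −0.11 under median centring. Inhba, the activin A subunit, stood on the other side with 0.25 and 0.26 (0.25 ± 0.0038, 1.19-fold higher with WME). Nptx2, a pentraxin that clusters AMPA receptors, had ratios of 0.17 and 0.27 (0.22 ± 0.067). Bdnf, a neurotrophin, was at 0.13 on both arrays, and its other probe had a mean of 0.17. The means of Inhba, Nptx2 and Bdnf are under 1.2-fold and kept their sign with processed signals. Median centring moved them up, to 0.41, 0.35 and 0.29, as it did the median of all features. It was therefore no check of a positive sign. With the smaller offset, which hardly changes bright probes, they were 0.26, 0.23 and 0.13. Homer1, a postsynaptic scaffold, had ratios of 0.077 and 0.39 (0.23 ± 0.22) on its brightest probe, while its probes for another RefSeq accession stood at 0.0014 and 0.13. Ptgs2, the inducible cyclooxygenase, was at 0.071 ± 0.13, with 0.065 on its other probe.

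The strain pair compared brain RNA of SAMP8 with that of SAMR1 on the control diet. Most of the 41 genes were higher in SAMP8, and the transcription factors differed most. Fos, Egr2, Nr4a1, Egr4, Arc and Atf3 were called higher, 6 of 41, against 0.969% of the 26947 measured features, and 0 were called lower, against 0.494%. On both arrays 32 of 41 lay above 0, where 23.9% of all features did, and at 1.2-fold 13 were higher and 0 lower, against 2.81% and 1.71%. Sik1 alone was below 0 on both arrays (−0.16 ± 0.10), among the 41 genes, where 26.7% of all features were. Of the 56 probes 43 were above 0 on both arrays (25.1% of all probes) and 3 below (25.6%). The median was 0.22 over all 41, 0.34 over the transcription factors, 0.11 over the regulators and 0.10 over the effectors, beside −0.0067 over all features.

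Egr2 differed most between the strains, with ratios of 1.19 and 1.11 (1.15 ± 0.055, 2.22-fold higher in SAMP8). Fos followed at 1.23 and 0.99 (1.11 ± 0.17, 2.16-fold), and Nr4a1 at 1.08 and 0.92 (1.00 ± 0.11). These 3 genes stood apart from the rest of the list by more than their spread over the arrays. A second tier lay near 1.5-fold. Arc was at 0.63 and 0.69 (0.66 ± 0.043), Egr4 at 0.63 and 0.65 (0.64 ± 0.013) and Atf3 at 0.68 and 0.59 (0.64 ± 0.063). Egr1 had ratios of 0.67 and 0.57 (0.62 ± 0.07) and missed the call on 1 array. Arc and Egr4 dropped under the call with median centring, at 0.56 and 0.55.

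Other AP-1 and related factors were higher by less or lay near 0. Junb was at 0.39 and 0.38 on its 2 probes, Nfil3 at 0.41 and 0.40, Fosb at 0.30 and Maff at 0.30. The probes of Fosl2 disagreed (0.39 for the brightest, −0.10 for the other), and its direction is not settled. Jun (0.038 ± 0.036) and Jund (−0.011 ± 0.14) were near 0 in this pair as well. Nr4a2 (0.39 ± 0.23), Klf4 (0.29 ± 0.048), Klf10 (0.27 ± 0.14), Npas4 (0.22 ± 0.22) and Nr4a3 (0.21 ± 0.083) were above 0 on both arrays. With processed signals the dim Nr4a3 probe stood at 0.74. Npas4, among the lowest members of the diet pair, was thus a minor member of the strain pair. Egr3 was at 0.14 ± 0.19 and Csrnp1 at 0.12 ± 0.043, with its other probes at −0.0025 and 0.071.

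Of the regulators, 11 of 15 were above 0 on both arrays and 0 were called. Dusp1 had ratios of 0.69 and 0.34 (0.52 ± 0.25) and Ier2 0.43 and 0.52 (0.47 ± 0.063), with the dimmer Ier2 probe at −0.11. Ier3, an apoptosis and ERK regulator, was at 0.29 and 0.47 (0.38 ± 0.13), and Gadd45b at 0.34 and 0.29 on its 2 probes. Btg2 gave 0.19, 0.32 and 0.22 on its 3 probes, and Tiparp was at 0.23 ± 0.09. The remaining 8 regulators other than Sik1 lay between 0.023 (Plk2) and 0.16 (Trib1). The second probes of Rgs2 and Zfp36 stood at 0.18 and −0.031. Among the effectors, Bdnf was at 0.20 and 0.22 (0.21 ± 0.014, its other probe at 0.18) and Ptgs2 at 0.20 ± 0.063 (its other probe at 0.14). Homer1 gave −0.10 ± 0.25 with its brightest probe, against 0.10 and 0.17 for its others. Nptx2 (−0.0033 ± 0.10) and Inhba (−0.015 ± 0.089) did not differ between the strains beyond their spread over the arrays.

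**Figure D3:**
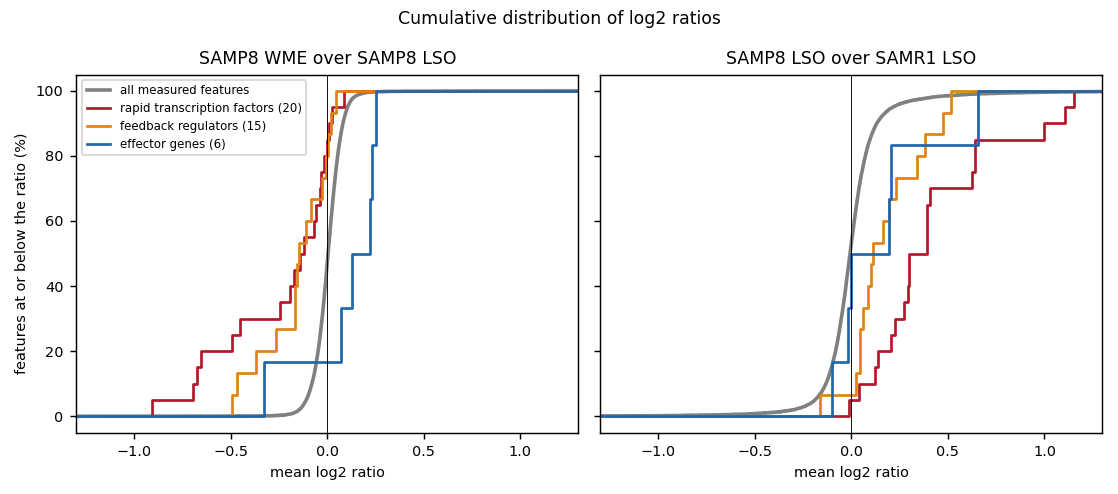
Cumulative share of features (percent) at or below each mean log2 ratio, for all measured features and for the 3 role groups, in the diet pair (left) and the strain pair (right). In the diet pair the medians of the transcription factors and regulators lie at −0.13 and −0.15, left of all features, and that of the effectors at 0.18; in the strain pair the transcription factors lie farthest to the right, with a median of 0.34.

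SAMP8 LSO RNA was the denominator of the diet pair and the numerator of the strain pair, so a value that is high in this RNA alone gives a negative diet ratio and a positive strain ratio. The channel levels show this for each RNA. After normalization, the Fos probe had a log2 intensity of 10.77 and 10.86 in SAMR1, 11.85 to 12.00 in the 4 SAMP8 LSO channels and 10.92 and 11.11 in SAMP8 WME. Egr2 lay at 9.88 and 9.89 in SAMR1, at 10.99 to 11.08 in SAMP8 LSO and at 10.33 and 10.37 in SAMP8 WME. For Fos, Egr2, Nr4a1, Egr4 and Arc the lowest SAMP8 LSO channel was above every channel of the other RNAs. The same held for further members, among them Egr1, Junb, Atf3, Dusp1, Btg2 and Ier2. The share of all features with channels that do not overlap between RNAs was not computed. Npas4 was also highest in SAMP8 LSO (9.26 to 9.48), but its SAMP8 WME level (8.53 and 8.82) lay under that of SAMR1 (9.03 and 9.24). Bdnf was lowest in SAMR1 (10.89 and 11.02), higher in SAMP8 LSO (11.11 to 11.22) and highest in SAMP8 WME (11.27 and 11.34), with no overlap. Inhba was similar in SAMR1 (11.02 and 11.03) and SAMP8 LSO (10.95 to 11.07) and higher in SAMP8 WME (11.23 and 11.32).

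**Figure D4:**
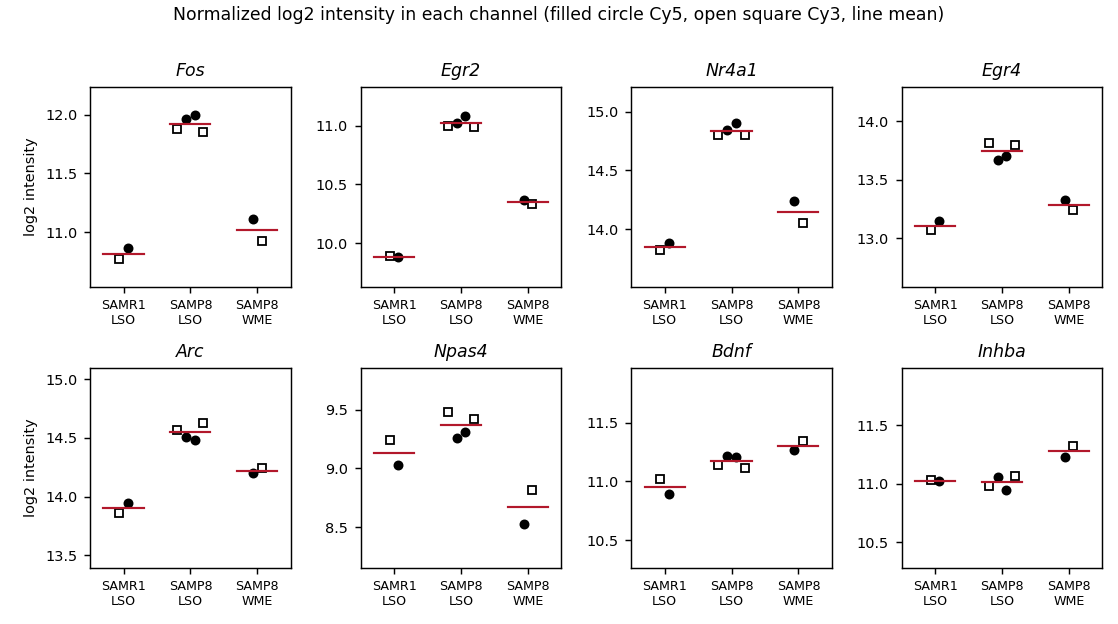
Normalized log2 intensity of 8 genes in each channel of the 4 arrays, by RNA (SAMR1 LSO, SAMP8 LSO, SAMP8 WME); filled circles are Cy5, open squares Cy3 and lines the mean, and every vertical axis spans the same range of log2 intensity. Fos, Egr2, Nr4a1, Egr4, Arc and Npas4 are highest in the 4 SAMP8 LSO channels, Npas4 is lowest in SAMP8 WME, and Inhba is highest in SAMP8 WME.

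The sum of both ratios sets SAMP8 WME against SAMR1 indirectly and removes the shared RNA, if it was the same in both pairs. By this measure 32 of 41 genes were above 0, where 13007 of 26399 features were, with a median of 0.13 beside −0.0019 over all features. Egr2 remained highest at 0.50, followed by Atf3 (0.45), Fosl2 (0.42, and −0.14 on its other probe), Klf4 (0.38) and Egr1 (0.38). Fos was at 0.20, Nr4a1 at 0.33, Egr4 at 0.18 and Arc at 0.33, so the WME level of each of these 4 genes lay between those of SAMR1 and SAMP8 LSO. Npas4 (−0.47), Sik1 (−0.27), Btg2 (−0.18) and Junb (−0.10) were under the SAMR1 level. All 6 effector genes were above 0, from 0.13 for Homer1 to 0.34 for Bdnf.

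A contrast of the dye terms of the pairs, in which RNA differences and probe dye bias both cancel, measured technical error on the same arrays. Scaled to the error of a pair mean, it had an SD of 0.0489 over all features and 0.0438 over the 41 genes. It ranged from −0.13 (Ppp1r15a) to 0.052 (Tiparp) and was 0.0092 for Fos, −0.0074 for Egr2 and 0.024 for Nr4a1. On the brightest probe, several diet means were larger in size than this contrast was for any of the 41 genes. Among them were those of Fos, Egr2, Nr4a1, Npas4, Junb, Egr4, Ier2, Dusp1, Btg2, Arc, Gadd45b, Egr1, Inhba, Nptx2 and Homer1. The dimmer Ier2 probe had the opposite sign (0.13), and the other Homer1 probes stood at 0.0014 and 0.13. Over all features the contrast ranged from −0.46 to 0.43. It measures error of hybridisation only, and the spread between animals is not in it.

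Genes upstream of the response and late activity genes were also examined. Of 35 upstream genes (CREB and its coactivators, SRF, MEF2 factors, calcium and MAP kinases, NMDA receptor subunits and calcium channels), 32 were measured and 0 were called in either pair. Over all features 0.0862% were called in the diet pair and 1.46% in the strain pair, in either direction. At such shares 0 calls in a list this short, or in the late genes below, says little about its genes. Their medians were 0.034 in the diet pair, with Elk4 and Rps6ka1 farthest at −0.14 each, and −0.046 in the strain pair, with Grin2b at −0.26 and Ntrk2 at 0.25. Of 20 late activity-response genes, chiefly neuropeptides and secreted proteins, 17 were measured and 0 were called in either pair. In the diet pair 9 of 17 were above 0 on both arrays and 0 below, with a median of 0.086 and Cdkn1a (0.19) and Npy (0.15) highest. Their median in the strain pair was −0.011, with 6 of 17 above and 7 below 0 on both arrays, Dusp4 (0.21) and Pcsk1 (0.20) highest and Sorcs3 (−0.17) and Cdkn1a (−0.15) lowest.

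Markers of other cells moved in part with the immediate early genes. Blood cell markers lay below 0 on both arrays of the diet pair for 8 of 9 genes, 2 of them called, and above 0 for 9 of 9 in the strain pair, 2 called. The called genes were S100a8 (−0.80 and 1.11) and S100a9 (−1.09 and 1.31), neutrophil proteins. The summed intensity of all 9 blood cell markers was 127000 to 139000 in SAMP8 LSO, 107000 to 117000 in SAMP8 WME and 98100 to 105000 in SAMR1. Endothelial and mural markers, whose cells also transcribe immediate early genes, were below 0 on both arrays of the diet pair for 8 of 12 and above 0 for 12 of 12 in the strain pair, 3 called, with sums of 51600 to 56100, 48700 to 49900 and 40800 to 41000 in the same order. Meningeal markers were below 0 for 6 of 10 and above 0 for 9 of 10 in these pairs, with 4 called higher in SAMP8. Their summed intensity (135000 to 212000 in SAMP8 LSO, 125000 to 199000 in SAMP8 WME and 123000 to 214000 in SAMR1) does not order the RNAs, and the ratios of Ptgds, 1 of its genes, had an SD over the arrays of 1.22 and 1.17 in the pairs. Cerebellar markers were below 0 on both diet arrays for 9 of 10 (median −0.23, 0 called) and had a strain median of 0.061, with sums of 170000 to 173000 in SAMP8 LSO, 151000 in SAMP8 WME and 158000 to 163000 in SAMR1. Astrocyte, oligodendrocyte, microglia, striatal and choroid plexus markers had diet medians of −0.11, −0.029, 0.064, 0.014 and 0.058 and strain medians of 0.10, 0.11, 0.10, 0.083 and −0.17, with 0 called. Neuronal markers had medians of 0.011 and −0.016, and hippocampal markers of 0.03 and −0.032. Of the 8 hippocampal markers Spink8 was called higher in SAMP8, with ratios of 1.28 and 1.06 (1.17 ± 0.15, 2.25-fold). Kidney transcripts were called higher with WME for 7 of 15, against 0.0562% of all features, and lower in SAMP8 for 4 of 14, against 0.494%. Pomc of 6 pituitary genes was called higher with WME (1.76). The pituitary markers Pou1f1 and Tshb were never above background. Heat shock genes had medians of 0.11 and 0.15, with 0 called. Glucocorticoid response genes had medians of 0.094 and −0.19, with 0 called in the diet pair. In the strain pair 6 of 11 were below 0 on both arrays and 2 were called lower in SAMP8, Sgk1 (−0.76) and Plin4 (−1.48). The part of these cell and stress markers in the differences of the immediate early genes was not tested.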

How the data were processed

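Spot intensities in the deposited files come from Agilent Feature Extraction 11.0.1.1, which the submitters' processing notes name. Per the file headers, median intensities are raw, while processed ones have had background subtracted and the dyes normalized. The deposited log10 ratios of red over green were not used. The deposited series table holds log2 ratios that equal red over green processed signal of the same array (largest difference 5e-09), neither turned for dye nor centred, with column medians of −0.0182, 0.0123, 0.00362 and 0.017. The processed signals of the scanner files served as an alternative. Flags were used as deposited.

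Median signals were corrected with normexp (offset 50, which pulls dim ratios towards 0) and then by loess with control spots at weight 0 (limma 3.58.1 under R 4.3.3). Outlier spots (105 to 123 per array) were left out, spots of a probe were averaged, and swapped arrays were turned. Channel levels used Aquantile scaling, whose values are not compared between probes. A feature counted as measured when 1 RNA of the pair was well above background on both arrays. Of 41174 probes, 23374 were named through RefSeq accessions of GRCm38.p6; the files name another build, so its gene coordinates were not used. The steps were tested on simulated signals. The genes, role groups and marker lists were chosen with earlier results of these data known. Members given on each array were the called ones, those with a mean of 1.5-fold, and the 3 highest and lowest per role and pair; the other members' values were added after they were seen.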

Additional observations from a re-analysis of the deposited data

How the results depend on the processing

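The calls rest on 1 RNA per group and 2 arrays per pair, and no paired analysis was possible because the arrays of a pair carry the same RNAs. Median centring without loess moved the diet median of all features to 0.066 and brought those of the 41 genes (0.0034) and of the regulators (0.013) above 0, though relative to all features they stood at −0.063 and −0.053. It moved the diet medians of the transcription factors to −0.046 and of the effectors to 0.32. It left 1 member called lower with WME (Fos) and 13 below 0 on both arrays. The strain medians under it were 0.31 for the transcription factors, 0.056 for the regulators and 0.065 for the effectors. Processed signals gave strain medians of 0.25 for all members, 0.39 for the transcription factors and 0.081 for the effectors, and an offset of 10 gave 0.24 for all. The median over a gene's probes gave 0.13 for the effectors in the diet pair, and 0.21, 0.30, 0.13 and 0.12 for all members, transcription factors, regulators and effectors in the strain pair. A 2-fold rule called 0 members lower in the diet pair and 1 (Egr2) higher in the strain pair, and a 1.2-fold rule called 10 and 13. On single arrays, which carry dye bias, the diet medians ranged from −0.15 to −0.066 for all members, −0.16 to −0.094 for transcription factors, −0.24 to −0.10 for regulators and 0.15 to 0.19 for effectors. The strain medians ranged from 0.21 to 0.22, 0.31 to 0.36, 0.16 to 0.19 and 0.11 to 0.13 in the same order. Members past 1.5-fold on a single array were 4 to 5 lower in the diet pair and 6 to 9 higher in the strain pair. Below 0 were 28 on either diet array, and 34 to 38 were above 0 on a strain array. The share of all features was not computed for single arrays or the 2-fold rule, and the shares given earlier are for both arrays. Requiring both RNAs above background, or no filter, changed no count of members. It could not, because every member probe was well above background in every channel. Of 224 values of 28 named members under the other settings, single arrays left aside, 188 stayed within their spread or their call, 32 moved by more than the spread, 3 lost the call (Egr2 in the diet pair, Egr4 and Arc in the strain pair) and 1 gained it (Npas4 in the diet pair). The 188 include the median over probes of members with 1 probe, which equals the main value and could not move.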
